A study of Mus musculus and Rattus norvegicus with 4 samples.

Results

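The genes described here are 10 myosin genes of the sarcomere, taken by name from a fixed list: 7 heavy chain genes (Myh1, Myh2, Myh3, Myh4, Myh6, Myh7 and Myh8) and 3 light chain genes (Myl1, Myl4 and Mylpf). They are 10 of 21887 protein-coding genes on placed chromosomes of the mouse. MEF2A binding was mapped by ChIP-exo, which trims immunoprecipitated DNA with an exonuclease to the edge of the bound protein before sequencing. The mouse sample was C2C12, an established line of skeletal myoblasts, kept for 48 h in differentiation medium with 2% horse serum, which lets the cells leave the cycle and fuse. The rat sample was primary cardiomyocytes from animals of 1 to 3 days of age. Each cell type had 1 MEF2A library and 1 normal rabbit IgG library, so no value below has a replicate check, and a single cultured line stands for skeletal muscle. The peak lists hold no expression values, so the cell type named by the labels could not be checked against markers.

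Myosin heavy chains are the motor proteins of the thick filament, and each is paired with an essential and a regulatory light chain that stiffen and tune its lever arm. Muscle switches heavy chain genes during development, from embryonic (Myh3) and perinatal (Myh8) forms to the adult fast forms IIa (Myh2), IIx (Myh1) and IIb (Myh4), while Myh7 serves slow fibres and the ventricle and Myh6 the atrium and the adult rodent heart. MEF2 factors bind a short AT-rich element, and promoters and enhancers of many contractile genes carry it.

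The 5 fast and developmental heavy chain genes lie side by side on chromosome 11, and the sequences before their starts are shown because they hold exact (Myh1, Myh4 and Myh8) or near matches (all 5 genes) to the element that MEF2 proteins recognise. Each run is the 250 bases before the gene's tabled start, 5′ to 3′ on the plus strand of GRCm38.p6 (the assembly behind mm10), from RefSeq. Capitals mark every match to the 10-letter MEF2 consensus with at most 1 mismatch. The runs lie at chr11:67078050-67078299 (Myh3), chr11:67170777-67171026 (Myh2), chr11:67199852-67200101 (Myh1), chr11:67237562-67237811 (Myh4) and chr11:67276874-67277123 (Myh8).
Myh3: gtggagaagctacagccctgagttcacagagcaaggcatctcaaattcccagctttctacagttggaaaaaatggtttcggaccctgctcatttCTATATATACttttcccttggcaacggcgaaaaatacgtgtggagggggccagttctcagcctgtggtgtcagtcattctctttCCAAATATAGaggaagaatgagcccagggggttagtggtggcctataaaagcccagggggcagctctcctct
Myh2: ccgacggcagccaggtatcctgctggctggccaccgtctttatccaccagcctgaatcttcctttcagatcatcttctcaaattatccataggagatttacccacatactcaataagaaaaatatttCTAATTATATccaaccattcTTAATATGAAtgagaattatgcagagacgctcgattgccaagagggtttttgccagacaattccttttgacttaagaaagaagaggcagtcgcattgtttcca
Myh1: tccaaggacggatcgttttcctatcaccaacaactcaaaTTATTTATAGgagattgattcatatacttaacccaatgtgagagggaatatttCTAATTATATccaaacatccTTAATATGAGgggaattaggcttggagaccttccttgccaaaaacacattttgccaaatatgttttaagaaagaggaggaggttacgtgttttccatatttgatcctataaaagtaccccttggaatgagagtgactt
Myh4: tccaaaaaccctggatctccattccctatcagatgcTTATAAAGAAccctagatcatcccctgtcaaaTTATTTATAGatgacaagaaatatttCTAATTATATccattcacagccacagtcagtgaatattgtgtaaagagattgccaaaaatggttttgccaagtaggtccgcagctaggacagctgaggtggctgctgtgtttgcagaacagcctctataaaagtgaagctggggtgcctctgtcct
Myh8: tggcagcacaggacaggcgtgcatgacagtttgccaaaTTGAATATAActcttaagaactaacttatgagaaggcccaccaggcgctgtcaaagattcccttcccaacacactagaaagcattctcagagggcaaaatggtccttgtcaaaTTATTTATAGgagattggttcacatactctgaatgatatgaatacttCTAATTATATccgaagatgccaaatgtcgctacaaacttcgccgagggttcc

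The first question was which myosin genes had a MEF2A peak in differentiating C2C12 cells. Of the 10 genes, 4 had one: the embryonic heavy chain gene Myh3 with 2 peaks, and the fast heavy chain gene Myh2, the embryonic and atrial light chain gene Myl4 and the fast regulatory light chain gene Mylpf with 1 peak each. Here a peak belongs to the nearest protein-coding gene span within 100 kb, and 1691 of all 21887 protein-coding genes (7.73%) had a peak by that rule. No peak was assigned to Myh1, Myh4, Myh8, Myh6, Myh7 or Myl1. The myosin genes were chosen with results of these data known, so 4 of 10 against 7.73% is a description and carries no test. Sites too weak to enter the list are not seen here, and a peak near a gene need not act on it.

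All 4 genes with a peak had it within 10 kb of the span, a distance at which 5.75% of protein-coding genes had one. The peak lay inside the span in 2 of the 10 genes (Myl4 and Mylpf), against 4.57% of all genes. Myh3 was the only gene of the 10 with 2 peaks, and 1.96% of all genes had 2 or more. Counting peaks near a gene whichever gene they were assigned to, 6 of the 10 genes had a peak within 100 kb, against 22.0% of all genes. The 2 genes that this count adds, Myh1 and Myh4, share their peaks with Myh2 and Myh3.

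**Figure D1:**
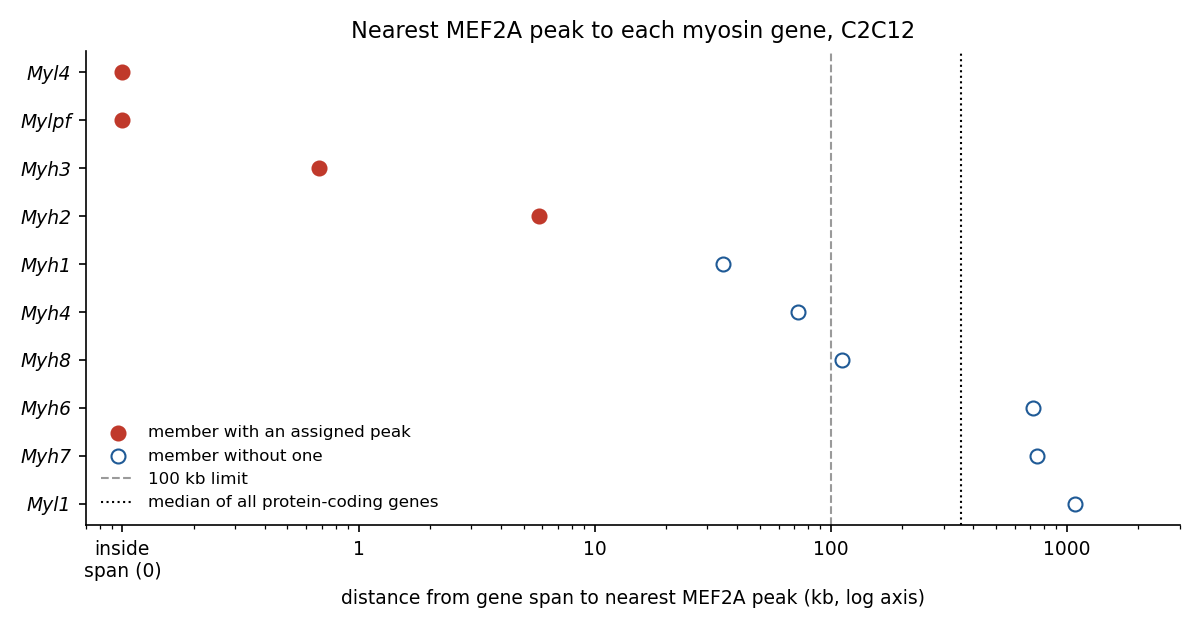
Distance in kb (log axis) from the span of each of the 10 myosin genes to the nearest C2C12 MEF2A peak, with peaks inside the span drawn at the left edge. Filled points are the 4 genes with an assigned peak and open points the 6 without; the dashed line is the 100 kb limit and the dotted line the median of all protein-coding genes (354 kb).

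Distances fell into separate ranges. The nearest peak was 0.681 kb from Myh3, 5.78 kb from Myh2, 34.9 kb from Myh1, 72.6 kb from Myh4 and 112 kb from Myh8. It was 714 kb from Myh6, 743 kb from Myh7 and 1.08 Mb from Myl1. The median over the 10 genes was 53.7 kb, against 354 kb over all protein-coding genes. It falls between Myh1 and Myh4, which share their nearest peak with Myh2 and Myh8. The 10 distances are thus not separate observations, and this median only describes the list. For Myh8 the nearest peak was still closer than for 76.3% of all genes, while 29.2% of all genes were farther from a peak than Myh6 was, and 18.4% farther than Myl1.

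Peaks were ranked by the authors' score, whose scale is not stated. Scores started at 50.08 in this list of 2797 peaks, and a stronger peak here means only a higher-scoring one. The Myl4 peak scored 737.64 and ranked 56, within the first 2.0% of the list. The Myh3 peaks scored 142.58 (rank 676) and 135.43 (rank 726). The Mylpf peak scored 82.48 (rank 1282) and the Myh2 peak 71.52 (rank 1556). The Myl4 score was thus far above the list's median of 77.04, and the Myh3 scores lay above it too. The Mylpf score was near that median and the Myh2 score just under it. There is 1 library without a replicate, and its depth is unknown. These scores thus carry no error, and the order of Mylpf and Myh2 is that of this list alone. At a score of 100 or more, 2 of the 10 genes (Myh3 and Myl4) kept a peak, against 3.47% of all genes.

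**Figure D2:**
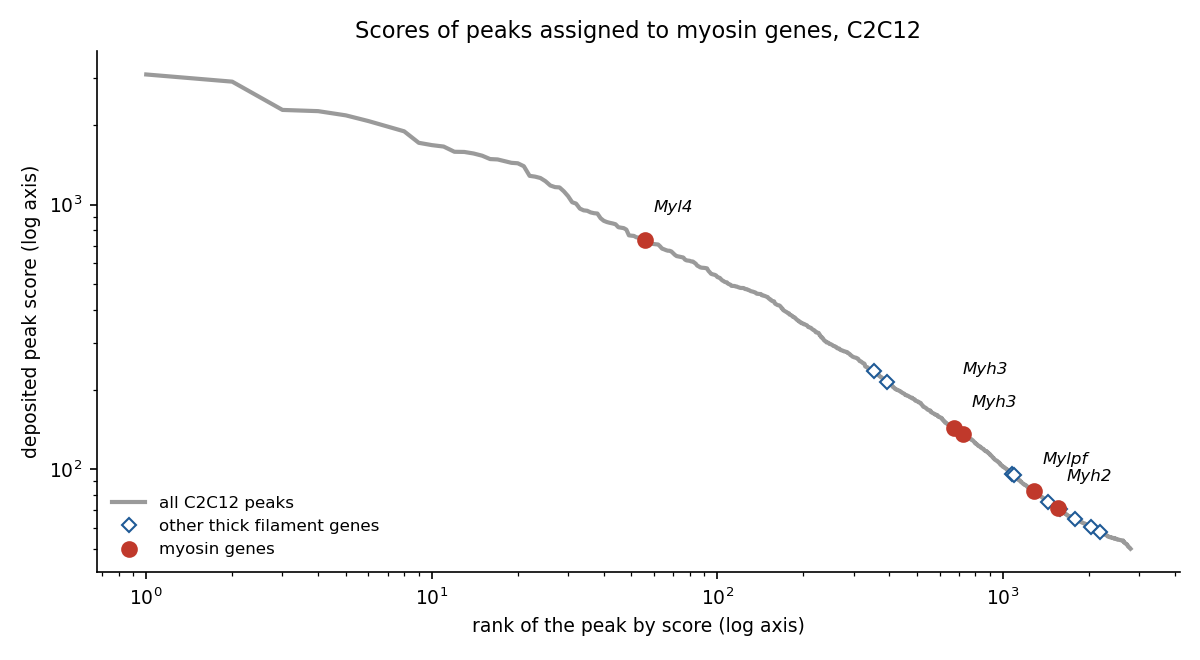
Deposited score of every C2C12 MEF2A peak against its rank (both log axes, grey line), with the 5 peaks assigned to myosin genes as filled circles and the 9 peaks of other thick filament genes as open diamonds. Myl4 at rank 56 stands far above the other 4 myosin peaks, which rank from 676 to 1556.

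The heavy chain genes of skeletal muscle form a row of 6 on chromosome 11, from Myh3 at 67078273 to the end of Myh13, a form best known from extraocular muscle, at 67371587 (mm10), a stretch of 293 kb. In order they are Myh3, Myh2, Myh1, Myh4, Myh8 and Myh13. The gap between Myh3 and Myh2 is 68.7 kb, and those between the other neighbours are 2.58 kb (Myh2 to Myh1), 13.2 kb (Myh1 to Myh4), 16.7 kb (Myh4 to Myh8) and 18.5 kb (Myh8 to Myh13). The window from 100 kb before the row to 100 kb after it held 3 peaks. All 3 lay on the Myh3 side of Myh2, and no peak was listed from Myh2 to Myh13. How well reads can be placed along these neighbouring genes was not tested, so a stretch without a listed peak need not be unbound.

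The first of these peaks (67077352 to 67077592, 241 bp wide, score 135.43) ended 708 bp before the tabled Myh3 start at 67078300. The second (67104825 to 67105093, 269 bp wide, score 142.58) lay 2.53 kb past the other end of the Myh3 span (67078273 to 67102291). The Myh3 gene was thus flanked by a peak on each side, with 27.2 kb between them and scores that differed by 7.15. The third (67165137 to 67165244, 108 bp wide, score 71.52) lay 60.0 kb farther on and 5.78 kb before the start of Myh2 (67171027 to 67197517). Both long intergenic noncoding genes of the annotation in this gap, 2310065F04Rik and Gm31285, lie between the second peak and the third. After the third peak the next listed peak on chromosome 11 was 1.15 Mb away and was assigned to Ntn1, a netrin gene.

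**Figure D3:**
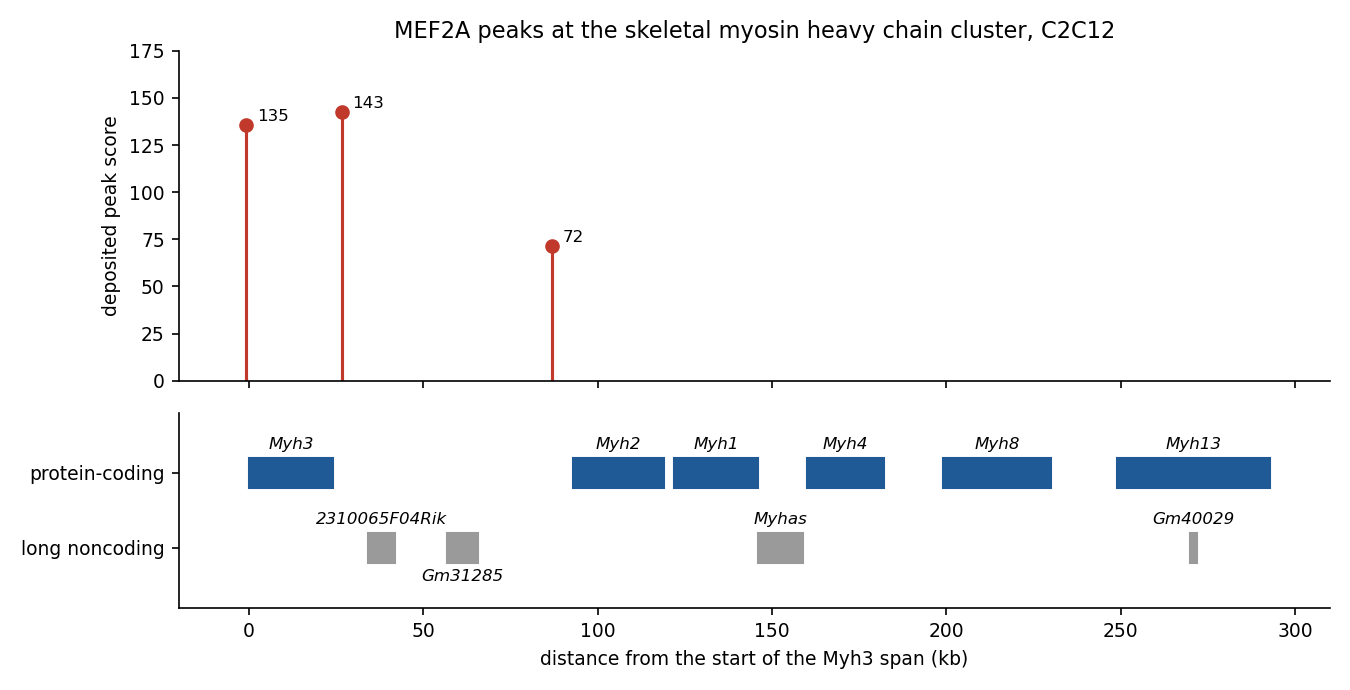
Score of each C2C12 MEF2A peak (stems, labelled with the rounded score) and the genes of the skeletal myosin heavy chain row (protein-coding in blue, long noncoding in grey), by distance in kb from the start of the Myh3 span. The 3 peaks lie at and between Myh3 and Myh2, and the stretch from Myh2 to Myh13 has none.

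Along this row the adult and perinatal genes were therefore ordered by their place. Between the third peak and Myh1 (67200102 to 67224577) lies the span of Myh2, between it and Myh4 (67237812 to 67260447) those of Myh2 and Myh1, and between it and Myh8 (67277124 to 67308634) those of Myh2, Myh1 and Myh4. The distances of 34.9, 72.6 and 112 kb are all measured to that single weak peak, so they are not separate observations. Assignment to the nearest gene gives it to Myh2 alone.

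The MEF2 consensus was found in promoters of this row that had no peak. In a window from 250 bases before to 50 bases after the start, the consensus occurred with no mismatch in 3 of the 10 myosin genes, Myh1, Myh4 and Myh8. The same search found it in 572 of 17492 protein-coding genes with such a window (3.27%). The consensus is its own reverse complement, so 1 search covers both strands. All 3 genes held the same letters, TTATTTATAG, and lie side by side, so they are not 3 separate observations. These letters occur on either strand in windows of 20 protein-coding genes. They began 211 bases before the start in Myh1, 182 in Myh4 and 99 in Myh8. None of the 3 genes had an assigned peak, and the 4 genes that did (Myh3, Myh2, Myl4 and Mylpf) held no such match in their windows. Among all genes with a window, a peak was assigned to 8.74% of those with the exact consensus and 7.38% of those without. An exact match without an assigned peak is thus the usual case, and the split among the myosin genes is a description only.

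With 1 mismatch allowed, 7 of the 10 genes had a match, against 26.5% of all genes. Among the 7, Myh2, Myh1, Myh4 and Myh8 held the same match, CTAATTATAT, so these are not separate observations either. Myh3 then had 2 matches, at 156 and 72 bases before the start, and Myh2 had 2, at 123 and 103 bases. Myh6 had 2 and Myl1 had 1. Myh7, Myl4 and Mylpf had none. Only these 300 bases of each gene were searched. The sequence under the peaks themselves was not analysed here.

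**Figure D4:**
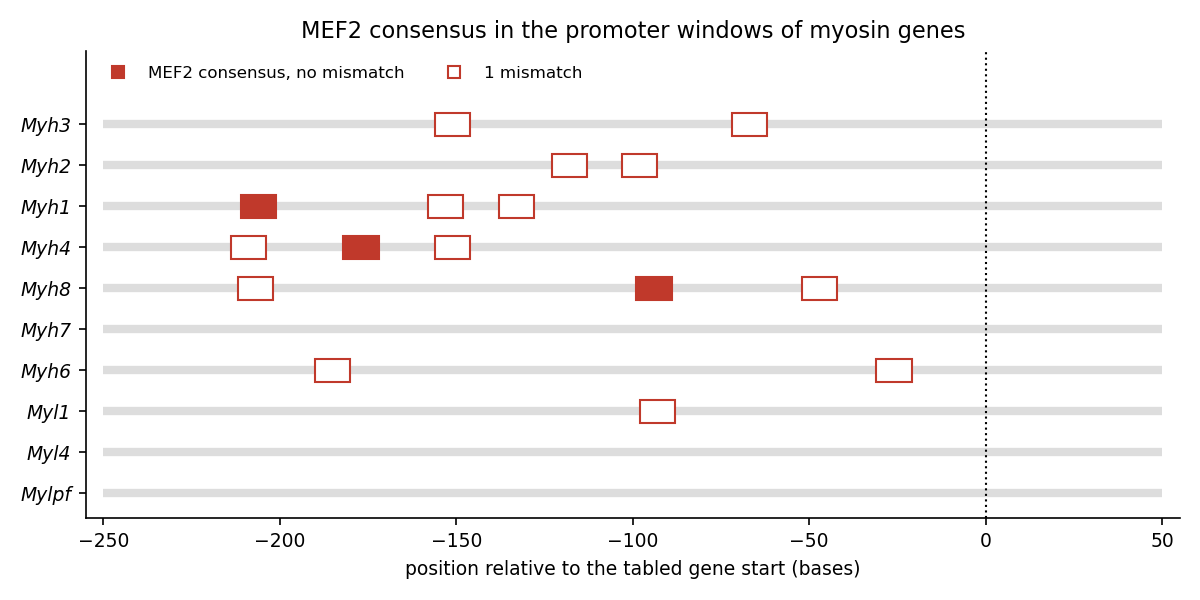
Matches to the 10-letter MEF2 consensus (filled, no mismatch; open, 1 mismatch) along the promoter window of each myosin gene, in bases from the tabled start (dotted line); the second, overlapping window of Myh7 had none either. Filled boxes occur in Myh1, Myh4 and Myh8, and every gene from Myh3 to Myh8 of the chromosome 11 row has at least 2 matches of either kind.

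The promoters of Myh2, Myh1, Myh4 and Myh8 share more sequence than those of the other myosin genes. A run of 14 bases, TTCTAATTATATCC, occurs in all 4 and in no other of the 17492 genes' windows on either strand. It holds the match CTAATTATAT, which has 1 mismatch to the consensus. It starts 125 bases before the Myh2 start, 160 before Myh1, 158 before Myh4 and 54 before Myh8. Pairs among these 4 genes shared runs of 14 to 22 bases, the longest of them TCAAATTATTTATAGGAGATTG in Myh1 and Myh8. The other 39 pairs of myosin genes shared at most 11 bases, Myh3 included. The order of the elements is kept, and the consensus match lies 51 bases before the shared run in Myh1, 24 in Myh4 and 45 in Myh8.

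Myh2 is the exception among these 4, having a peak and no exact match. Over 24 bases around the Myh1 match, the closest stretch of the Myh2 window differed at 4 bases, that of Myh8 at 2 and that of Myh4 at 7. Over the wider stretch Myh4, which holds the exact match, thus differed from Myh1 at more bases than Myh2 did. In the 10 consensus letters Myh2 reads TTATCCATAG, which differs from Myh1 by T5C and T6C, with positions counted from 1 at the 5′ end of the 10 letters and the Myh1 base given first. This stretch begins 168 bases before the Myh2 start, and the Myh2 peak lies 5.53 kb from its promoter window.

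None of the 5 myosin peaks overlapped a promoter window of its gene or of any other of the 10. Across the C2C12 list such overlap was rare, with 64 of 2797 peaks (2.29%) over a window of a protein-coding gene and 65 of 17492 genes (0.372%) having one. Among the 572 genes with the exact consensus in a window, 9 (1.57%) had a peak over a window, and among the 16920 genes without it 56 (0.331%) did. Most genes with the exact element thus had no peak over the window, and Myh1, Myh4 and Myh8 are 3 of them. Within 100 kb, a peak was assigned to 8.74% of the genes with the exact consensus and to 7.38% of those without.

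E-boxes, the CANNTG element of MyoD-family factors, and the AP-1 element TGANTCA were counted in the same windows. Both read the same on either strand. An E-box was present in 7 of the 10 genes, against 72.1% of all genes, with 3 in Myh4, 2 in Myh8 and none in Myh2, Myh1 or Myl4. The AP-1 element was present in 1 of the 10, Myh1, against 8.12% of all genes. Both shares are near those of all genes.

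The cardiac heavy chain genes had no listed peak for a long way on either side. Myh6 (chromosome 14, 54941921 to 54968017) and Myh7 (54970684 to 54994626) are neighbours 2.67 kb apart on the minus strand. The peak nearest to them (54227321 to 54227441, score 66.67) was 714 kb from Myh6 and was assigned to Dad1, a subunit gene of the oligosaccharyltransferase. Between that peak and Myh6 lie the spans of 29 protein-coding genes. On the other side the first peak was 2.61 Mb beyond Myh7 and was assigned to Xpo4, an exportin gene, so the stretch without a listed peak ran over 3.38 Mb.

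Of the light chain genes, Myl4 held the strongest peak of the 10 myosin genes. Its peak (chromosome 11, 104560907 to 104561407, score 737.64) was 501 bp wide, against a median of 144 bp over the list. It lay inside the Myl4 span (104546017 to 104587215), 10.2 kb past the tabled start at 104550663. The tables give no exons, so the peak could not be placed in an intron or exon. A long noncoding gene, Gm11665 (104556789 to 104562198), covers the same position. The flanking peaks were 184 kb before the Myl4 span (score 79.7, assigned to Kansl1) and 979 kb after it.

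Mylpf held a weaker peak close to its start. The peak (chromosome 7, 127210406 to 127210682, 277 bp wide, score 82.48) lay inside the annotated span (127208848 to 127214288) but ended 926 bp before the tabled start at 127211608. It is thus upstream of that start although the span counts it as inside. The Mylpf peak and the first Myh3 peak were the only ones of the 5 within 1 kb of a tabled start of their gene. The flanking peaks were far off, 728 kb before the Mylpf span and 789 kb after it. The peak after it was assigned to Trim72, a membrane repair gene.

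**Figure D5:**
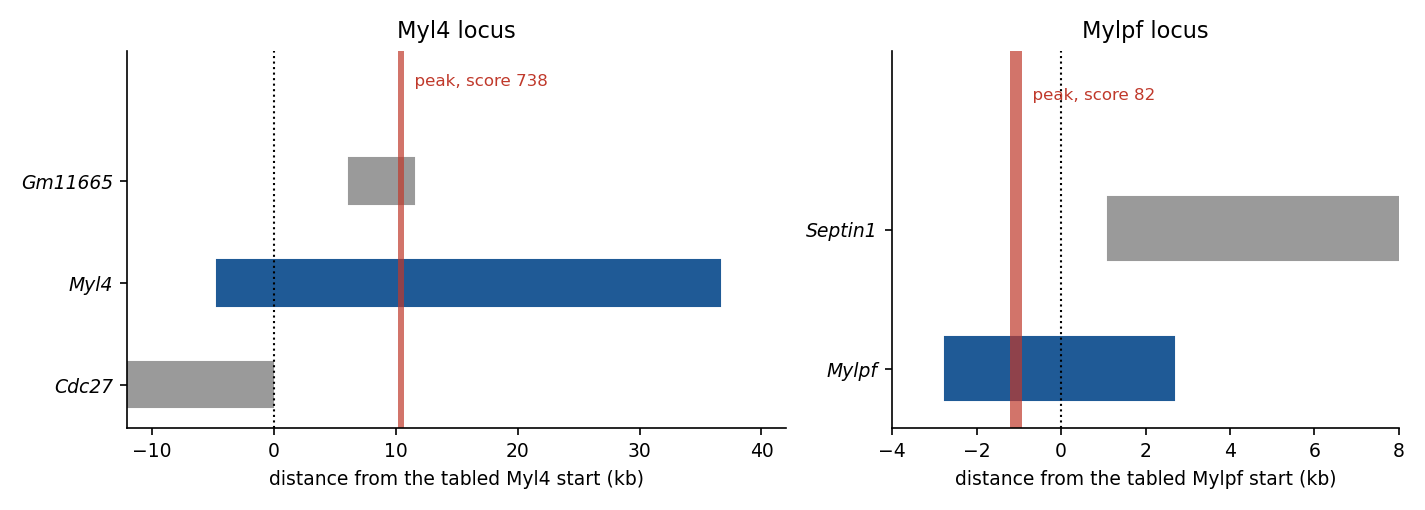
Position of the MEF2A peak (red band, with its rounded score) and of the annotated genes at Myl4 and Mylpf, in kb from the tabled start of each (dotted line); grey boxes are other genes, cut at the panel's edge. The Myl4 peak lies 10.2 kb past the start and the Mylpf peak 0.926 kb before it.

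Myl1, the fast essential light chain gene (chromosome 1, 66924295 to 66947932, minus strand), had no peak within 1 Mb. The nearest (65846928 to 65847630) ranked 10 of all 2797 peaks with a score of 1676.76, and it was assigned to Crygf, a lens crystallin gene, with 6 protein-coding spans between it and Myl1. On the other side the first peak was 2.51 Mb away. The 2 fast light chain genes, Myl1 and Mylpf, whose products sit on the same heavy chains, thus differed in whether a peak was listed near them.

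Other genes of myosin and the thick filament were taken from a list of 36, for some of which a peak was known from earlier results of these data. Of these, 8 (22.2%) had an assigned peak, between the 4 of 10 of the myosin genes above and the 7.73% of all genes. The strongest belonged to Myl12a, a regulatory light chain gene of nonmuscle myosin, with a peak of score 234.49 inside its span and one of 96.13 at 10 bp from its far end. The first of these also lay 3.74 kb from the span of Myom1, and the second 3.04 kb from that of Myl12b. Both genes are in the list too, but the nearest-span rule gives the peaks to Myl12a. Hsp90aa1, the gene of an HSP90 chaperone that helps fold myosin heads, had a peak of score 214.46 at 2.98 kb from the span. Myl12a and Hsp90aa1 were the only 2 of the 36 (5.56%) with an assigned peak of 100 or more, against 3.47% of all genes.

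The other 6 had weaker peaks. Myom3, an M-band protein gene, had one of 94.85 at 12.9 kb. Myom2, its relative in fast fibres, held one of 74.96 inside the span, and Smyd1, a methyltransferase needed for myosin assembly, held one of 70.57. A pair of nonmuscle heavy chain genes had upstream peaks, Myh9 (64.62 at 21.1 kb) and Myh10 (60.25 at 16.2 kb). Mylk2, the skeletal myosin light chain kinase gene, had one of 58.04 at 5.54 kb. No peak was assigned to the ventricular light chain genes Myl2 and Myl3, the atrial light chain gene Myl7, the myosin-binding protein genes Mybpc1, Mybpc2 and Mybpc3, or the chaperone gene Unc45b. The exact MEF2 consensus occurred in windows of 3 of the 31 genes of this list with a window (9.68%), against 3.27% of all genes. These were Mylk4, Mybpc3 and Myom3, of which Myom3 had an assigned peak.

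The rat cardiomyocyte list held 1868 peaks with scores from 50.02 to 1763.8. No rn5 annotation was used here, so rat peaks at the myosin genes, among them the cardiac genes Myh6 and Myh7, were not analysed, and no comparison between the cell types is made.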

How the data were processed

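ChIP-exo libraries were made from chromatin of sonicated nuclei with a MEF2A antibody, per the labels' protocols. Tools named in the submitters' processing notes are MACS 1.4.2, BWA 0.5.9, CASAVA 1.7.0, SAMtools and Picard, without settings, and the builds are mm10 (mouse) and rn5 (rat). The authors deposited 1 list of peaks per MEF2A library, with a score for each peak whose scale no header states, so scores were compared only within the mouse list. The IgG libraries are not used here. The labels do not state whether they served in peak calling. Depth is unknown, so no counting interval was computed.

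Mouse peaks (starts read as counting from 0, printed from 1) were assigned to the nearest protein-coding span of RefSeq GRCm38.p6 within 100 kb, with distance 0 inside a span and ties counted for each gene. All 10 myosin genes and all 36 further genes matched by symbol. Start sites and promoter windows came from the RefSeq promoter table, which covers 17492 of the 21887 genes and all 10 myosin genes. Several windows of 1 gene counted as 1 gene. The members, lists and consensus were chosen with earlier results of these data known. Named are all 10 members, list genes with a peak, and genes between a member and its nearest peak. Of the last, those near Myh6, Myh7 and Myl1 are given only as a number. Genes that take the peaks farther off, list genes named without a peak, shared promoter runs and peaks over promoter windows were chosen after the values were seen. Assignment and motif search were tested on simulated data. Python 3.11.15, numpy 2.4.6, pandas 2.3.3 and matplotlib 3.10.9 were used.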

Additional observations from a re-analysis of the deposited data

How the results depend on the processing

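Myh3, Myh2, Myl4 and Mylpf had an assigned peak under limits of 10 kb and 1 Mb, assignment to the nearest start site, use of the peak's midpoint, competition from all annotated genes and merging of peaks under 1 kb apart. Of all protein-coding genes, 8.69% had a peak within 1 Mb, 7.7% by midpoint, 5.96% with all annotated genes competing and 7.73% after merging. Only the score minimum removed any of the 4 genes. At 100 or more, 2 members with 3 peaks, 2 genes of the list of 36 and 759 genes in all (3.47%) had a peak. At 200 or more, these were 1 member (Myl4) with 1 peak, 2 genes of the list and 334 genes in all (1.53%). Within 10 kb, 5 genes of the list of 36 had a peak, against 5.75% of all genes. By nearest start site, 8 genes of that list had one, with Myl12b in place of Myom3, against 7.21% of all genes. In that setting the 4395 genes without a tabled start were placed by both ends of their span. Counting every span within 100 kb gave 17 genes of that list and 4823 in all (22.0%), and 6 members. Allowing 1 mismatch raised the members with a consensus match from 3 to 7, and the share of all genes with a window from 3.27% to 26.5%. Distances to start sites were 708 bp for Myh3, 10244 bp for Myl4 and 926 bp for Mylpf. Alternatives for rat peaks were not run, since no rn5 annotation was used. Depth is unknown, and without replicates it cannot be said which weak peaks recur. No paired analysis was possible because there is a single library in every group.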
